A study of Mus musculus with 8 samples.

Results

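The nuclear-encoded subunits of the mitochondrial oxidative phosphorylation system were compared between induced regulatory T cells (iTregs) of 2 genotypes. Members were all listed genes whose symbol begins with Nduf followed by a, b, c, s or v and a digit, with Cox followed by a digit from 4 to 8, with Uqcr or with Atp5, plus Sdha, Sdhb, Sdhc and Sdhd. The rule took 81 of 11911 listed genes and used no measured value. Of these, 37 belong by symbol to complex I, 4 to complex II, 8 to complex III, 14 to complex IV and 18 to complex V. All 81 passed the filter on low counts, as did 11317 of the 11911 genes overall. The symbols that the rule took fit the known complexes except for Ndufa4, whose protein is now placed in complex IV, and Cox5b-ps, a retrocopy of Cox5b. Nuclear subunits with symbols outside these patterns were not taken, so the sums need not cover whole complexes. Cox7a2l, which joins complexes III and IV, and Atp5if1, which inhibits complex V, are partners of the complexes rather than subunits in the strict sense.

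The libraries were bulk RNA-seq of splenic naïve CD4+ T cells, purified by negative selection and driven toward the regulatory fate for 36 hours with TGF-β, anti-CD3 and anti-CD28 while IL-4 and IFN-γ were blocked by antibodies. The Foxp3YFP-Cre group (WT) and the Tdrd3fl/fl/Foxp3YFP-Cre group (KO) held 4 libraries each, and no sorting of YFP+ cells is described before RNA was taken. Both groups carried Foxp3YFP-Cre on a C57BL/6J background. This Cre is made from the Foxp3 locus, so the floxed Tdrd3 alleles are meant to be cut in cells that have switched Foxp3 on. In which cells they were cut cannot be read from bulk counts. Which exons are floxed, the age and the sex of the RNA-seq mice are not given in the sources used here. The methods name 3 biological replicates from independent mice and the labels name 4 samples a group. If any of the 4 shared a mouse, the p-values would measure in part technical spread.

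Oxidative phosphorylation passes electrons from NADH (complex I) and succinate (complex II) through complex III to oxygen at complex IV, and complex V uses the resulting proton gradient to make ATP. Complexes I, III, IV and V are built from proteins of 2 genomes, since mitochondrial DNA encodes 13 of their subunits, whereas all of complex II is encoded in the nucleus. Activated T cells enlarge their mitochondria as they begin to divide, and regulatory T cells are known for a strong reliance on mitochondrial respiration.

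Short sequences of several members are given first, because some of the results turn on which copy of a gene a read can be given to. Atp5mc1, Atp5mc2 and Atp5mc3 encode the c subunit, whose ring rotates in complex V. They differ in their import signals but end in the same 78 residues, by a script's translation of the GENCODE M39 coding sequences. The last 30 coding bases before the stop codon are shown on the coding strand, with the 8 positions that differ among the 3 genes in capitals.
Atp5mc1: atggtCgcCttCCtCatcCtCttCgccatg
Atp5mc2: atggtGgcCttTCtCatcCtCttCgccatg
Atp5mc3: atggtTgcGttCTtGatcTtGttTgccatg
The 3 genes stand on chromosomes 11, 15 and 2 (chr11:95959678-95966496, chr15:102571299-102580787 and chr2:73738791-73741670, all on the minus strand of GRCm39). Their coding sequences were 76.7% identical between Atp5mc1 and Atp5mc2, 70.7% between Atp5mc1 and Atp5mc3, and 71.1% between Atp5mc2 and Atp5mc3. Cox5b and Cox5b-ps are far closer, at 99.2% over 390 coding bases, and the 30-base coding window with most differences between them holds 1, in capitals.
Cox5b: cgctccatggcttctggaggtggtgtcccC
Cox5b-ps: cgctccatggcttctggaggtggtgtcccT
Cox5b lies at chr1:36730530-36732762 and its retrocopy at chr13:21685120-21685616 (GRCm39). Of the 81 members, 10 had a near copy elsewhere in the genome (at least 95% identity over at least 60% of the transcript), among them Atp5mg with 10 copies, Cox7c and Uqcrb with 3 each, Atp5mc2 with 2 and Atp5mc1 with 1. Their counts are uncertain to the extent that reads were shared with those copies. The rule misses shorter copies: Cox5b, with a transcript of 900 bases, counted as having 0, although Cox5b-ps has 497 bases. Members outside the 10 are thus not all free of shared reads.

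Many nuclear subunit genes are known to carry binding sequences of NRF1 and of the ETS factor GABP close to their start, with YY1 sites in some. Promoters in RefSeq (GRCm38.p6, 250 bases before to 50 bases after the start) matched 66 of the 81 members. The letters GCGCNTGCGC (the NRF1 motif, both strands) stood in the promoters of 17 of the 66 (25.8%), against 12.4% of 8993 tested genes with a promoter and 5.19% of all 27025 genes in that table. The ETS letters CCGGAAG (both strands) stood in 16 members (24.2%), against 21.8% of tested genes and 9.93% of all genes. The YY1 letters AAGATGGCG (both strands) stood in 7 members (10.6%), against 3.88% and 1.64%. TATAAA was found for 5 members (7.58%), against 8.14% of tested genes and 15.7% of all genes. These shares describe letters only, and binding was not measured. The windows below come from members whose RNA is described further on, with the matched letters in capitals and the sequence read along the gene.
Sdha, NRF1 letters, chr13:74350276-74350305: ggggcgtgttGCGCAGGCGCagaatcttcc
Sdhd, NRF1 letters, chr9:50603909-50603938: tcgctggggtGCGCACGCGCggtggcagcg
Sdhb, ETS letters, chr4:140961266-140961295: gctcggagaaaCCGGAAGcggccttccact
Uqcrc1, NRF1 letters, chr9:108936668-108936697: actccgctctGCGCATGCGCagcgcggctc
Atp5mc3, NRF1 letters, chr2:73911295-73911324: gagccgcaccGCGCTTGCGCgcccagcccc
Atp5pf, YY1 letters, chr16:84835045-84835074: aagtgtaggaAAGATGGCGgagtcttagct
Coordinates of these windows are those of GRCm38.p6. The Sdhb and Uqcrc1 windows lie on the plus strand and the other 4 on the minus strand. The Sdha promoter held 3 such NRF1 matches, and Atp5pf shares its upstream region with Gabpa, the gene of the DNA-binding subunit of GABP.

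Library totals ran from 13258239 to 16001676 counts. The targeted gene, Tdrd3, had 18.8, 15.1, 9.95 and 17.7 normalized counts per 1000000 (CPM) in the libraries labelled WT1 to WT4 and 13.7, 10.7, 12.9 and 11.1 in KO1 to KO4. The library labelled WT3 thus lay below every KO library. By edgeR's quasi-likelihood test the log2 fold change was −0.35 (KO minus WT; SE 0.155, unadjusted p = 0.037, Benjamini-Hochberg adjusted p = 0.496). Foxp3 RNA was 110 ± 12.5 CPM in WT and 88.4 ± 13.3 in KO (SD, n = 4 each; unadjusted p = 0.00212, adjusted p = 0.152 by edgeR). The T cell markers Cd3e, Cd3d, Cd3g, Cd4, Cd28 and Lck summed to between 1660 and 1790 CPM in every library. Cd8a and Cd8b1 summed to 21.8 CPM in the library labelled WT3, against 7.72 to 9.93 in the other WT and 6.68 to 8.35 in the KO libraries, and the listed markers of B, myeloid and muscle cells were at most 2.71. The library labelled WT3 also stood apart in the genes described here. The sums of each complex and some of the genes that it moved are therefore given with and without it. In bulk RNA, fewer cells with a transcript and less transcript per cell cannot be told apart.

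The summed RNA of the 81 genes was the same share of the counts in both genotypes. It came to 9317, 9325, 10090 and 9246 CPM in WT1 to WT4 and to 9582, 9562, 9473 and 9356 in KO1 to KO4. The means were 9494 ± 397 and 9493 ± 103 (SD, n = 4), 0.949% of the counts in each genotype. The library labelled WT3 was the highest of the 8 and the other 3 WT libraries were the lowest, so the groups overlap through WT3 alone. Without it the WT mean was 9296 ± 43.4 and the log2 ratio of KO to WT was 0.03 rather than −7.6e-05.

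Gene by gene, differences were small. By edgeR's quasi-likelihood test, the adjusted p of no subunit was below 0.05, a threshold that 30 of 11317 genes (0.265%) passed, and the lowest adjusted p among the 81 was 0.267. At an unadjusted p below 0.05, a level reached by 9.3% of all genes (4.91% lower and 4.38% higher in KO), 1 subunit was higher and 0 were lower. Of all genes 3.47% also changed by at least 1.2-fold, and 0 subunits did. DESeq2 on the same counts gave the same numbers for the subunits, and limma's voom gave 2 higher, 0 lower and 0 at an adjusted p below 0.05. A change of more than 1.1-fold was estimated for 2 subunits, against 22.5% of all genes. Log2 fold changes ran from −0.12 to 0.22 with 45 of the 81 below 0 (49.4% of all genes were below 0), and their median was −0.014, against 0.0013 over all genes. The median size of a change, regardless of sign, was 0.045 for the subunits and 0.0633 for all genes. For 67 of the 81 (82.7%, against 59.1% of all genes) the 95% interval of the fold lay inside 1.2-fold in both directions. The subunits are more abundant than most genes (median 62.3 against 37.5 CPM), and their standard errors were smaller (median 0.0641 against 0.0738). The 14 whose interval reached beyond 1.2-fold were Ndufa1, Ndufa3, Ndufa5, Ndufb1, Ndufb4, Ndufb5, Ndufc1, Uqcrb, Uqcrq, Cox6b2, Cox7a1, Atp5mc2, Atp5me and Atp5mj, and of these Uqcrq was the 1 whose interval did not include 0.

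**Figure D1:**
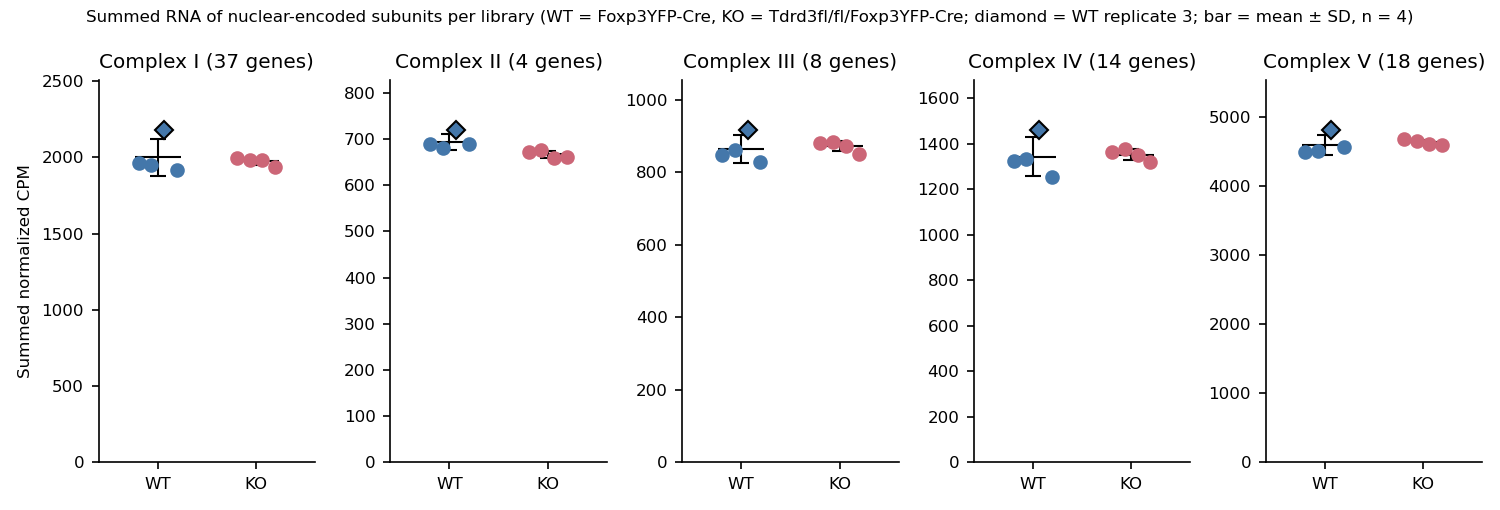
Summed normalized CPM of the nuclear-encoded subunits of each complex (y axis, from 0) in the 4 WT (blue) and 4 KO (red) libraries, with horizontal bars for the mean and whiskers for the SD. The diamond is the library labelled WT3, the highest of all 8 in every panel, and only in complex II do the 4 KO points (660.0 to 675.3) all lie under the 4 WT points (680.9 to 719.8).

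**Figure D2:**
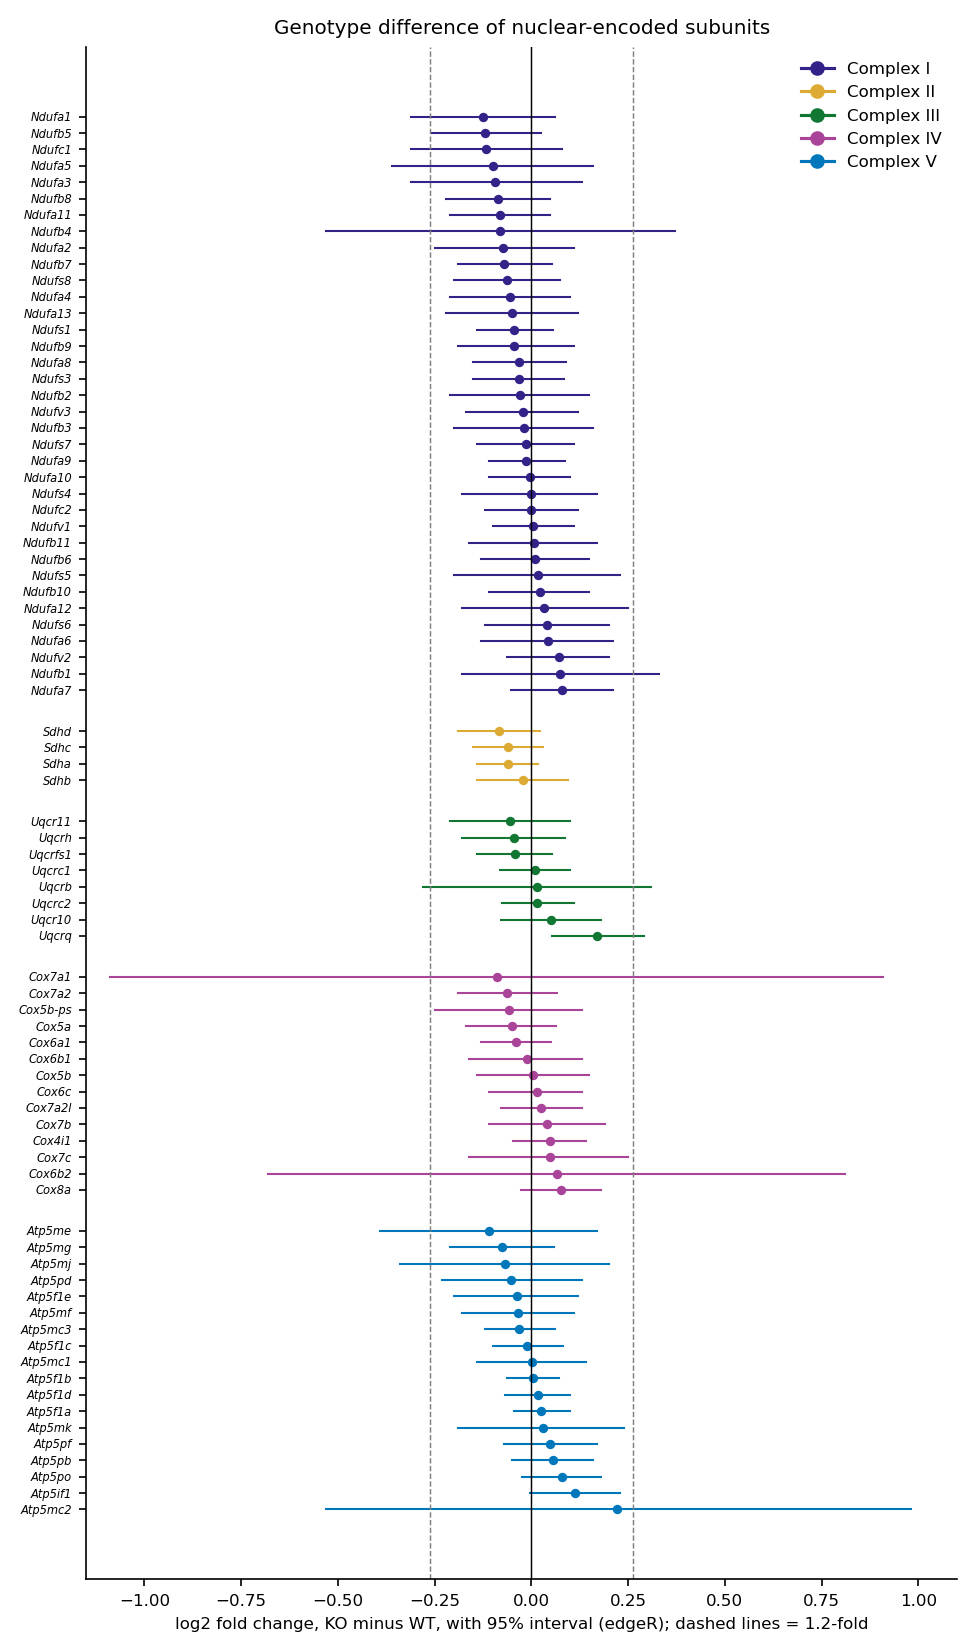
Log2 fold change (KO minus WT, x axis) of each gene shown with its 95% interval from edgeR, ordered within each complex and coloured by complex, with dashed lines at 1.2-fold. Nearly all points lie close to 0, the interval of Uqcrq lies wholly above 0, and the widest intervals belong to the scarce Cox7a1, Atp5mc2, Cox6b2 and Ndufb4.

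Complex I, which takes electrons from NADH, had no subunit past either threshold. Its 37 genes summed to 1960, 1947, 2179 and 1915 CPM in WT1 to WT4 and to 1994, 1980, 1981 and 1939 in KO1 to KO4. The KO libraries lay together inside the WT range, and the WT range was set at its upper end by the library labelled WT3. Means were 2000 ± 121 and 1973 ± 23.6 (SD, n = 4). The median log2 fold change was −0.023, with 24 genes below 0 and 13 above. Leaving out WT3 turned the log2 ratio of the sums from −0.019 to 0.024.

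The 7 core subunits of complex I, which hold the flavin and the iron-sulfur clusters, had log2 fold changes from −0.064 to 0.07. Ndufs1, the largest subunit, had 107, 104, 110 and 105 CPM in WT and 103, 109, 97.2 and 103 in KO. The 2 ranges overlapped, and the fold was 0.969 (95% interval 0.904 to 1.04; adjusted p = 0.862 by edgeR). Ndufv1, which binds NADH, had 108 ± 4.78 CPM in WT and 108 ± 6.07 in KO (SD, n = 4), a fold between 0.932 and 1.08 at 95%.

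Of the 11 B-series accessory subunits, which sit mainly in the membrane arm, 7 were below 0 and 4 above. The lowest was Ndufb5, named here after its values were seen, with 56.6, 55.3, 62.2 and 53.1 CPM in WT and 47.7, 49.8, 54.0 and 57.7 in KO. The KO libraries covered a range both below and inside that of WT, and the log2 fold change of −0.12 (SE 0.0685) had an adjusted p of 0.656 by edgeR. Ndufb4 was the scarcest complex I subunit per length, with 4.66, 3.86, 5.26 and 4.11 CPM in WT and 2.98, 5.64, 4.43 and 3.80 in KO. Its fold could lie anywhere from 0.695 to 1.29. The estimated counts of Ndufb4 were not whole in any of the 8 libraries, although the search found no near copy. Ndufa1, a small membrane-arm subunit encoded on the X chromosome, had the lowest fold change of the complex. It had 24.5, 24.9, 30.1 and 22.9 CPM in WT and 22.2, 24.5, 24.1 and 23.2 in KO. The log2 fold change of −0.12 (SE 0.0882; adjusted p = 0.762) rested in part on WT3, the highest of the 8, and was −0.036 without it. At the other end, Ndufa7 had 48.8, 48.3, 55.0 and 54.0 CPM in WT and 55.0, 50.9, 56.8 and 55.2 in KO, a log2 fold change of 0.079 (SE 0.0627). The groups overlapped here as well.

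Ndufa4, the most abundant gene with a complex I symbol per length although its protein belongs to complex IV, had 80.9, 84.4, 104 and 84.8 CPM in WT and 91.6, 90.6, 79.3 and 79.4 in KO. WT3 stood above the other 3 WT libraries, and the KO libraries fell into a higher and a lower pair on either side of those 3. The log2 fold change was −0.056 (SE 0.0731; adjusted p = 0.893 by edgeR), and 0.034 without WT3.

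Complex II, succinate dehydrogenase, is both a step of the tricarboxylic acid cycle and an entry point to the respiratory chain. Its summed RNA did not overlap between the genotypes, unlike that of the other complexes. Of single genes tested, 4.89% did not overlap in either direction, and the sums of the complexes were not tested. The 4 genes summed to 688.7, 680.9, 719.8 and 688.8 CPM in WT1 to WT4 and to 671.3, 675.3, 660.0 and 660.7 in KO1 to KO4. Every KO library lay below every WT library, with means of 666.8 ± 7.68 and 694.5 ± 17.2 (SD, n = 4), a ratio of 0.96. Sdha alone supplied 334 CPM of the KO mean and 348 of the WT mean. Of the 4 genes, the groups overlapped in Sdhb, Sdhc and Sdhd and not in Sdha. Without WT3 the WT mean was 686.1 ± 4.53 and the log2 ratio moved from −0.059 to −0.041, with the direction kept.

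No gene of complex II passed the test. Sdha, the flavoprotein that oxidizes succinate, had 354, 347, 344 and 348 CPM in WT and 344, 342, 321 and 329 in KO. It was the 1 subunit of the 81 in which every KO library lay below every WT library (1.23%, against 2.63% of all genes tested), and there was no subunit with every KO library above (2.25% of all genes, so that 4.89% did not overlap in either direction). In Sdha this was by a margin that vanishes in 3 digits between KO1 and WT3. The log2 fold change was −0.061 (SE 0.0375; adjusted p = 0.701 by edgeR), a fold between 0.908 and 1.01, and an exact two-sided permutation test gave p = 0.0286, the smallest that 4 against 4 libraries can give. Exons of Sdha (chr13:74470373-74498399, minus strand, GRCm39) overlap those of Ccdc127 on the other strand. Sdhb, the iron-sulfur subunit, had 109, 102, 123 and 102 CPM in WT and 105, 107, 110 and 108 in KO. Its groups overlapped, and the fold lay between 0.908 and 1.07. Without WT3 the log2 fold change of Sdhb turned from −0.023 to 0.041, while those of Sdha, Sdhc and Sdhd were −0.066, −0.047 and −0.035.

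The membrane anchors of complex II, Sdhc and Sdhd, bind ubiquinone. Sdhc had 107, 113, 115 and 113 CPM in WT and 105, 108, 108 and 108 in KO. WT1 alone fell among the KO libraries, and the log2 fold change was −0.061 (SE 0.0443; adjusted p = 0.773 by edgeR). Sdhd had 119, 118, 137 and 126 CPM in WT and 117, 119, 121 and 116 in KO. WT3 and WT4 were above every KO library while WT1 and WT2 were among them, with a log2 fold change of −0.083 (SE 0.05; adjusted p = 0.69). Sdhd overlaps Timm8b on the other strand.

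Complex III, which moves electrons from ubiquinol to cytochrome c, contained the subunit with the lowest p. Uqcrq, a small subunit that lies beside cytochrome b, had 74.7, 73.3, 83.1 and 73.1 CPM in WT and 91.0, 82.0, 86.0 and 83.3 in KO. KO libraries were higher, and the groups met only where WT3 (83.1) passed KO2 (82.0). The fold was 1.12 (95% interval 1.04 to 1.22), a log2 fold change of 0.17 (SE 0.0558). The unadjusted p was 0.00673 and the adjusted p 0.267 by edgeR, while an exact two-sided permutation test, whose smallest possible value is 0.0286, gave p = 0.0571. Uqcrq (chr11:53318749-53321658, minus strand, GRCm39) shares exon sequence with Gdf9 on the opposite strand, and whether reads were counted by strand is not stated.

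In the fit of all 8 libraries, other complex III genes did not follow Uqcrq. The core proteins Uqcrc1 and Uqcrc2 had log2 fold changes of 0.010 and 0.016, and Uqcrc1, the most abundant of the complex per length, had 224 ± 8.15 CPM in WT and 226 ± 9.4 in KO (SD, n = 4; fold between 0.946 and 1.07 at 95%). Uqcrfs1, the Rieske iron-sulfur protein that takes the first electron from ubiquinol, had 151, 164, 156 and 151 CPM in WT and 152, 147, 160 and 145 in KO. Those values overlapped, and the log2 fold change was −0.041 (SE 0.0455). Uqcr11, the lowest of the complex both in fold change and in level per length, had 35.4 ± 3.58 and 34.1 ± 0.522 CPM (log2 fold change −0.055, SE 0.0743). The 8 genes summed to 864.7 ± 37.8 CPM in WT and 871.8 ± 13.9 in KO, with WT3 the highest of the 8. Without it the WT mean was 847.2 ± 17.1 and the log2 ratio of the sums moved from 0.012 to 0.041. Leaving out the highest library lowers the WT mean and the WT SD together, so the gap cannot be judged against that smaller SD. Also without WT3, Uqcrb rose from 0.015 to 0.22 (SE 0.108) and Uqcr10 from 0.052 to 0.11 (SE 0.0588), beside 0.22 for Uqcrq. The others then stood at 0.03 (Uqcrc1), 0.044 (Uqcrc2), −0.04 (Uqcrfs1), −0.015 (Uqcr11) and −0.0059 (Uqcrh). Uqcrb, Uqcr10 and Uqcrh were named after their values were seen.

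Complex IV, cytochrome c oxidase, reduces oxygen to water. Its 14 nuclear genes summed to 1323, 1332, 1461 and 1256 CPM in WT1 to WT4 and to 1364, 1375, 1349 and 1320 in KO1 to KO4. The library labelled WT3 was the highest and WT4 the lowest of the 8, with the KO libraries between them. The median log2 fold change was 0.0088, with 6 genes below 0 and 8 above and 0 past the test. Without WT3 this median was 0.071, and the log2 ratio of the sums moved from 0.0089 to 0.052. Among the 10 structural subunits, log2 fold changes ran from −0.063 (Cox7a2) to 0.077 (Cox8a). Cox4i1, the largest nuclear subunit and the site at which ATP acts on the enzyme, had 268, 255, 269 and 236 CPM in WT and 254, 272, 275 and 261 in KO. The ranges overlapped, with a fold between 0.967 and 1.1. Cox8a had 122, 125, 124 and 117 CPM in WT and 139, 120, 129 and 127 in KO. In 3 of 4 KO libraries it was above every WT library, and the log2 fold change of 0.077 (SE 0.0491) had an adjusted p of 0.708 by edgeR.

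The early-assembling subunits Cox5a and Cox5b had log2 fold changes of −0.051 (SE 0.0549) and 0.0039 (SE 0.07). Cox5b had 64.8 ± 7.39 CPM in WT and 65.0 ± 2.91 in KO, and Cox5b-ps 23.7 ± 2.9 and 22.8 ± 1.08 (SD, n = 4). In all 8 libraries both members of this pair held estimated counts that were not whole. Cox6a1, the liver-type and general form of its subunit, had 197, 196, 206 and 189 CPM in WT and 195, 196, 196 and 181 in KO, with KO4 the lowest of the 8. Per length it was the most abundant gene of complex IV. Cox7a2, the general form of subunit 7a, had 80.9 ± 7.78 and 77.4 ± 2.98 CPM, and Cox7a2l 160 ± 10.8 and 162 ± 4.64.

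Tissue-restricted forms were close to the limit of detection. Cox7a1, the heart and muscle form, had 0.342, 0.728, 1.12 and 0.850 CPM in WT and 1.16, 0.689, 0.827 and 0.204 in KO, where 3 counts correspond to between 0.188 and 0.225 CPM. The fold of this gene was not resolved at this depth (95% interval 0.47 to 1.88). Cox6b2, the testis form of subunit 6b and named after its values were seen, had 1.25 ± 0.301 and 1.33 ± 0.502 CPM, against 92.7 ± 11.1 and 91.9 ± 5.84 for Cox6b1. Cox4i2 and Cox6a2 were not among the listed genes, and the filter behind that list is not given.

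Complex V, the ATP synthase, supplied the largest part of the summed RNA. Its 18 genes summed to 4495, 4502, 4809 and 4557 CPM in WT1 to WT4 and to 4673, 4650, 4611 and 4584 in KO1 to KO4. The KO libraries lay above WT1, WT2 and WT4 and below WT3. Means were 4591 ± 148 and 4630 ± 39.7 (SD, n = 4), and the log2 ratio was 0.012 with WT3 and 0.035 without it. Atp5f1b and Atp5f1a, the β and α subunits of the catalytic head, made up most of this sum. Atp5f1b had 1740, 1740, 1800 and 1790 CPM in WT and 1780, 1760, 1780 and 1760 in KO, with the KO libraries inside the WT range and a fold between 0.957 and 1.05. Atp5f1a had 1180, 1210, 1250 and 1240 CPM in WT and 1260, 1250, 1250 and 1220 in KO, with a fold between 0.969 and 1.07. Across the 5 subunits of the head, log2 fold changes ran from −0.036 to 0.025.

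In the fit of all 8 libraries, the other parts of complex V differed in sign but not past the test. Of the 4 peripheral stalk subunits, which hold the head still, 3 were above 0 (median log2 fold change 0.052). Of the 5 other membrane subunits, which help to form dimers, 4 were below 0 (median −0.069). This contrast in sign depended on WT3, as the values of all members of both parts show. Without WT3, Atp5me, Atp5mf, Atp5mj and Atp5mk had log2 fold changes of 0.081, 0.062, 0.11 and 0.16, and Atp5mg had −0.074. The stalk subunits Atp5pb, Atp5pd, Atp5pf and Atp5po then had 0.1, 0.032, 0.11 and 0.12. Atp5me, the lowest of the complex in fold change, had 14.0, 14.9, 21.7 and 12.6 CPM in WT and 15.1, 13.6, 14.7 and 15.2 in KO. WT3 alone raised the WT mean above that of KO, and the log2 fold change of −0.11 (SE 0.135) turned to 0.081 without it. Atp5if1, the inhibitor that stops the enzyme from running backward, had 63.0, 63.7, 70.9 and 65.3 CPM in WT and 69.4, 73.9, 69.2 and 71.5 in KO. KO libraries were above WT1, WT2 and WT4, with WT3 among them. The fold was 1.08 (95% interval 0.998 to 1.17; p = 0.0554, adjusted p = 0.553 by edgeR), and an exact two-sided permutation test gave p = 0.0857.

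The 3 genes of the c ring, whose last coding bases are printed above, had very unequal counted RNA in both genotypes. Per kilobase of transcript, Atp5mc3 had 263 normalized CPM, Atp5mc1 67.8 and Atp5mc2 1.97 (means of 8 libraries). Atp5mc3 had 256, 253, 283 and 258 CPM in WT and 252, 269, 259 and 248 in KO, with a fold between 0.918 and 1.04. Atp5mc1 had 41.5 ± 3.04 and 41.6 ± 2.12 CPM (SD, n = 4; fold between 0.908 and 1.11). Neither differed beyond the spread of its replicates. Atp5mc2 had 1.23, 0.946, 1.82 and 1.27 CPM in WT and 2.32, 1.00, 2.03 and 0.883 in KO. It held the highest log2 fold change of the 81 (0.22, SE 0.361), but the KO libraries lay on both sides of WT and the fold could lie from 0.691 to 1.97. A copy that matched 89.2% of its transcript at 100% identity stands elsewhere in the genome, and the estimated counts of Atp5mc2 were whole in 0 of 8 libraries. The part of shared reads in the low level of Atp5mc2 was not tested.

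**Figure D3:**
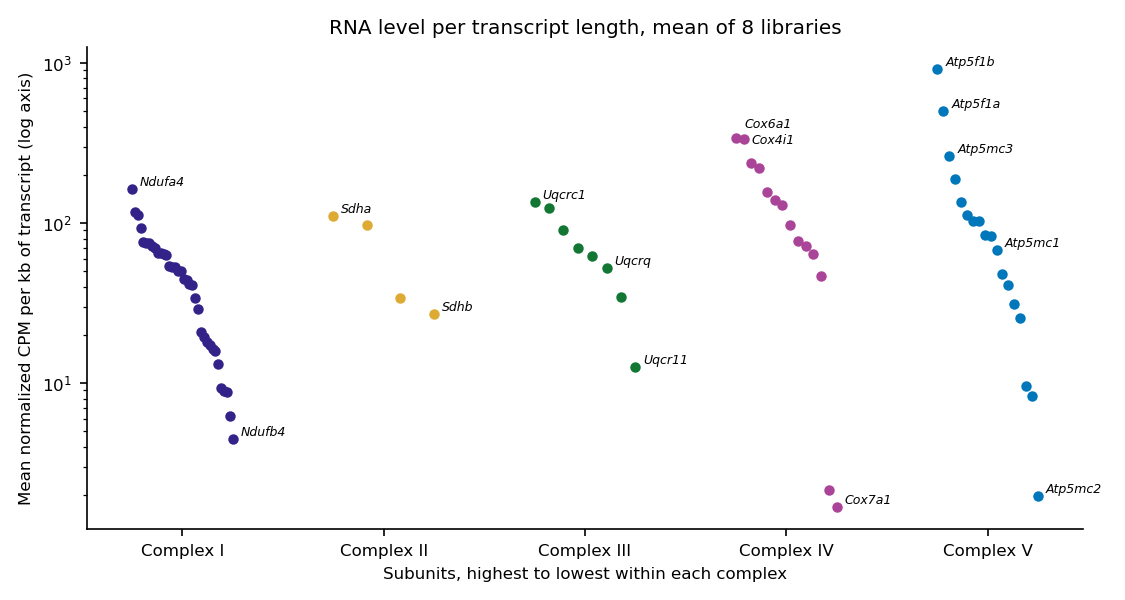
Mean normalized CPM per kilobase of the Ensembl canonical transcript over the 8 libraries (y axis, log scale) for the genes shown, in descending order within each complex along the x axis. Atp5f1b (918) and Atp5f1a (499) are the highest, and Atp5mc2 (1.97) and Cox7a1 (1.68) are at the bottom.

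Within a complex, levels of RNA per length spread widely. They ran from 164 (Ndufa4) to 4.47 (Ndufb4) normalized CPM per kilobase in complex I, from 111 (Sdha) to 26.9 (Sdhb) in complex II, from 136 (Uqcrc1) to 12.7 (Uqcr11) in complex III, from 341 (Cox6a1) to 1.68 (Cox7a1) in complex IV and from 918 (Atp5f1b) to 1.97 (Atp5mc2) in complex V. The catalytic head of complex V holds several copies of its α and β subunits, and these 2 genes were the highest of the 81. Transcript lengths are those of the annotation, not of the forms used in these cells. For genes with near copies, such as Atp5mc2, levels also depend on how shared reads were assigned.

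In the summed RNA, libraries of the same genotype differed by more than the genotype means did. The library labelled WT3 was the highest of the 8 for 55 of the 81 genes (67.9%), whereas it was the highest for 15.6% of all genes tested. WT4 was the lowest for 27, and for 14.1% of all genes. The median subunit lay 0.14 above its mean of 8 libraries on the log2 scale in WT3, and 0.065 below it in WT4. For comparison, the same median was −0.026 in WT1, −0.028 in WT2 and between −0.034 and 0.011 in the KO libraries. WT3 exceeded the mean of the other WT libraries by 1.12-fold in complexes I and IV, 1.08-fold in III, 1.06-fold in V and 1.05-fold in II. The median coefficient of variation of a subunit was 8.01% in WT and 4.69% in KO, against 7.29% in WT and 6.51% in KO over all genes tested. Without WT3 the WT value of the subunits was 3.86%. Leaving out the library that stood apart in these genes lowers this value by itself, and no matching value over all genes was computed.

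**Figure D4:**
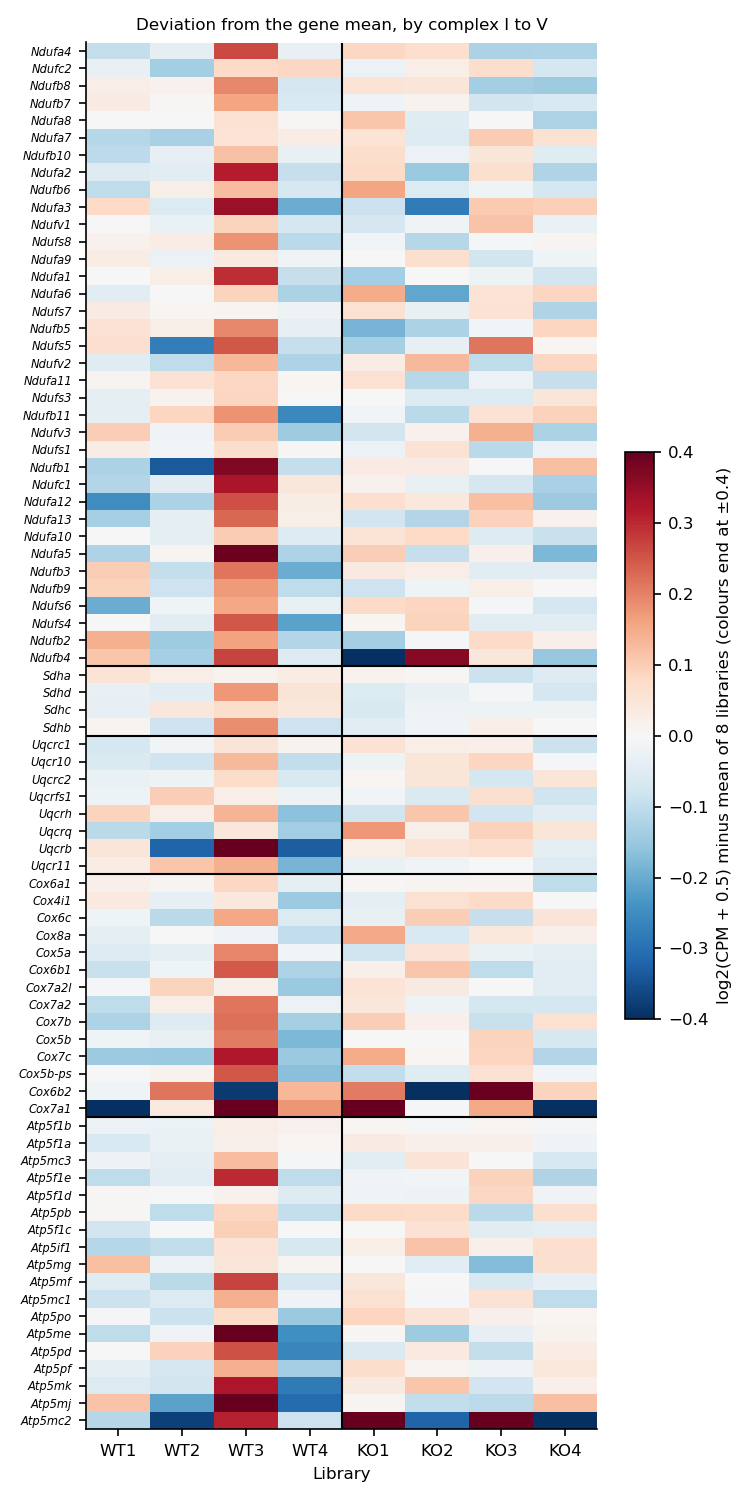
Deviation of log2(CPM + 0.5) from the mean of the 8 libraries for each gene shown (rows, ordered by complex and by level) in each library (columns), with colours ending at ±0.4. The WT3 column is red over most rows, for a median over the 81 genes of 0.14, and the WT4 column is mostly blue, for a median of −0.065.

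Other measures moved with that library. The 86 cytosolic ribosomal protein genes summed to 39700 CPM in WT3 and 34740 in WT4, the highest and lowest of the 8. Most subunits have short transcripts, with 67 of the 81 in the shortest of 3 equal bins of all genes tested (2604 bases or less). Other genes in that bin had a median deviation of 0.034 in WT3 and −0.026 in WT4, in the same direction as the subunits and smaller. The part of transcript length, of the CD8 markers or of Tdrd3 level in these values was not tested.

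Without WT3, 8 subunits had an unadjusted p below 0.05, all higher in KO (9.88%, against 9.82% of all genes in both directions, 4.94% higher and 4.88% lower), and 60 of the 81 were above 0 (against 50.7% of all genes). None passed an adjusted p of 0.05 (10 genes, 0.0877%, did). The 8 were Uqcrq (log2 fold change 0.22, SE 0.0539, adjusted p = 0.123 by edgeR), Atp5if1 (0.15), Atp5po (0.12), Atp5pf (0.11), Cox7b (0.13), Cox7c (0.18), Ndufb1 (0.24) and Ndufv2 (0.13). The last 6 were named after their values were seen. Leaving out this library thus raised the number of subunits above 0 from 36 to 60, whereas the 4 genes of complex II summed lower in KO with or without it. WT3 was singled out for high values in these same genes, so leaving it out was bound to raise most fold changes. The rise is therefore no separate evidence of a genotype difference. The number above 0 was 29 without WT1, 26 without WT2, 24 without WT4 and 32 to 41 with 1 KO library left out.

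The mitochondrial genome gave far more RNA than the nuclear subunit genes. Its 13 protein-coding genes summed to 26750, 25420, 28320 and 25330 CPM in WT1 to WT4 and to 25670, 27310, 23610 and 25380 in KO1 to KO4. WT3 was again the highest, KO3 was the lowest, and the groups overlapped (26460 ± 1400 and 25490 ± 1520, SD, n = 4). The ratio of mitochondrial to nuclear subunit RNA was 2.87, 2.73, 2.81 and 2.74 in WT and 2.68, 2.86, 2.49 and 2.71 in KO, means of 2.79 ± 0.0655 and 2.69 ± 0.152.

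**Figure D5:**
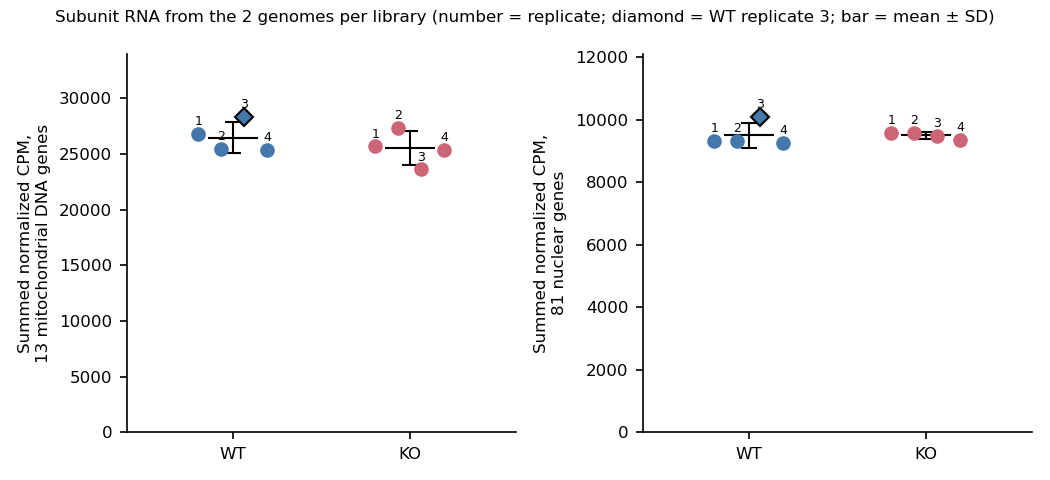
Summed normalized CPM of the 13 protein-coding genes of mitochondrial DNA (left) and of the 81 nuclear genes (right) in each library, both axes from 0, with replicate numbers, means and SD bars. WT3 (diamond) is the highest in both panels, at 28320 and 10090, and KO3 is the lowest on the left, at 23610.

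Of the 13 mitochondrial genes, 12 had log2 fold changes below 0 (49.4% of all genes did; median −0.08), and 3, all of complex I, were lower in KO at an unadjusted p below 0.05 (23.1%, against 4.91% of all genes). These were mt-Nd5 (1870, 1780, 2110 and 1750 CPM in WT and 1660, 1830, 1610 and 1730 in KO; log2 fold change −0.14, adjusted p = 0.356 by edgeR), mt-Nd4l (−0.28, adjusted p = 0.416) and mt-Nd6 (−0.21, adjusted p = 0.499). Their groups overlapped in every case, and the count was 0 without WT3, 1 without WT1, KO3 or KO4, 5 without WT2 and 6 without KO2. mt-Co1, the catalytic subunit of complex IV, had 9860 ± 302 and 9640 ± 540 CPM, and mt-Cytb, the core of complex III next to Uqcrq, 2740 ± 167 and 2590 ± 189 (SD, n = 4). The 13 genes are processed from shared precursor transcripts and are not independent.

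Genes that build the complexes were examined as a group of 59 assembly factors, of which 6 were higher in KO (10.2%, against 4.38% of all genes) and 0 lower (4.91% of all genes) at an unadjusted p below 0.05, with a median log2 fold change of 0.05. They were Tmem186 (complex I), Uqcc5 (complex III) and Cox15, Cox16, Cox17 and Cox18 (complex IV). Uqcc5 had the highest fold change, with 2.19, 2.98, 2.66 and 2.62 CPM in WT and 4.57, 3.26, 3.38 and 4.01 in KO. Every KO library lay above every WT library (log2 fold change 0.54, SE 0.22; adjusted p = 0.442 by edgeR). Tmem186 likewise did not overlap, at 26.0 ± 0.825 and 29.0 ± 0.5 CPM (adjusted p = 0.499). Cox17, which carries copper to complex IV, had 106 ± 4.87 and 114 ± 2.74 CPM (adjusted p = 0.499). The lowest was Ndufaf5, a complex I factor (log2 fold change −0.22, SE 0.136; adjusted p = 0.708). The count of 6 rose to 10 without WT3 and fell to between 1 and 4 when any other library was left out.

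Of 23 transcriptional regulators of the subunits, 2 were higher in KO at an unadjusted p below 0.05 and 0 lower (4.38% and 4.91% of all genes). NRF1, whose letters stand in the promoters above, is the product of Nrf1, with 86.7 ± 2.42 CPM in WT and 87.3 ± 3.61 in KO (SD, n = 4; log2 fold change 0.0097, SE 0.0493). Tfam, which packages and transcribes mitochondrial DNA, had 68.4 ± 4.21 and 67.8 ± 1.99 CPM, and Yy1 229 ± 4.56 and 232 ± 3.95. Esrra, Ppargc1b and Myc, which drive mitochondrial growth, had log2 fold changes of 0.038 (SE 0.0945), 0.16 (SE 0.14) and 0.084 (SE 0.0433). Gabpa had the lowest p of the regulators tested, with 107, 101, 106 and 104 CPM in WT and 117, 108, 117 and 124 in KO. Every KO library lay above every WT library, with a log2 fold change of 0.16 (SE 0.0493), p = 0.00499 and adjusted p = 0.231 by edgeR, and p = 0.0286 in an exact two-sided permutation test. Its neighbour Atp5pf, whose exons overlap those of Gabpa on the opposite strand, had 89.9, 88.2, 102 and 84.0 CPM in WT and 97.1, 93.1, 91.4 and 95.2 in KO (log2 fold change 0.049, SE 0.0567). The partner subunit Gabpb1 had the lowest fold change of the 23 regulators tested (−0.07, SE 0.0518). The other regulator past an unadjusted p of 0.05 was Nfe2l1 (0.13, adjusted p = 0.295), and Perm1, at 1.13 ± 0.316 and 1.28 ± 0.276 CPM, had the highest fold change (0.18, SE 0.332).

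In the remaining mitochondrial groups no gene had an adjusted p below 0.05. At an unadjusted p below 0.05, where 4.38% of all genes were higher in KO, the shares were 2.94% for inner membrane and import, 3.85% for mitochondrial ribosomal proteins, 5.26% for other carriers and 10.5% for the tricarboxylic acid cycle, all of them higher in KO. Of 34 genes for inner membrane structure and protein import, 1 was higher in KO at an unadjusted p below 0.05, Hspa9, the import motor of the matrix, with 696, 669, 732 and 740 CPM in WT and 793, 741, 746 and 813 in KO (log2 fold change 0.12, adjusted p = 0.288 by edgeR). The groups did not overlap. Of 78 mitochondrial ribosomal protein genes, 3 were higher (Mrpl24, Mrps11 and Mrps22, by 0.12 to 0.17 on the log2 scale) and 0 lower, and Mrpl23 had the lowest value (−0.32, SE 0.184). Of 19 other electron carriers and their makers, Gpd2, the mitochondrial glycerol phosphate dehydrogenase, was higher (0.15, adjusted p = 0.496) and Coq8a was the lowest (−0.20, SE 0.141). At the same threshold, of 19 genes of the tricarboxylic acid cycle and of pyruvate entry (succinate dehydrogenase aside), Cs, the citrate synthase, and Dld, the lipoamide dehydrogenase, were higher (0.087 and 0.13, adjusted p = 0.516 and 0.446), and Idh2 was the lowest (−0.10, SE 0.0545). With 1 library left out, the number higher in KO was 1 to 5 for inner membrane and import (5 without WT4), 0 to 8 for mitochondrial ribosomal proteins (8 without WT3, 0 without WT1 or KO2), 0 to 1 for other carriers (0 without WT1 or KO1) and 0 to 2 for the tricarboxylic acid cycle (0 without WT1 or KO4).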

How the data were processed

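Bulk RNA-seq of 8 iTreg cultures was used, 4 of each genotype, grouped by the genotype in the labels. Total RNA was depleted of ribosomal RNA. The authors aligned reads to GRCm39 with STAR 2.7.8a and deposited unnormalized estimated counts per gene from Partek Flow 12.8.1, with gene coordinates and lengths. The filter behind the listed genes, the annotation version and whether strand was used are not given in the sources used here. Estimated counts of 48 members were not whole (by more than 0.005) in at least 1 library, and the whole table was rounded.

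The filter on low counts was filterByExpr (minimum count 10). Libraries were scaled by TMM (factors 0.9931 to 1.004) and tested across all 11317 genes by edgeR 4.0.16 (R 4.3.3) with Benjamini-Hochberg adjustment. No block was used, since the sources used here do not pair WT and KO libraries by number. Normalized CPM are counts per 1000000 of the scaled total; 95% intervals come from the quasi-likelihood fit. Exact two-sided permutation tests over the 70 arrangements used log2(CPM + 0.5). On simulated counts for 11317 genes, with 50 genes at each fold, 70% of 1.25-fold and 84% of 1.5-fold changes were called at an adjusted p below 0.05. Of 178 calls there, 7 were false. The simulated spread followed the trend over all genes and held no shift of a whole library such as that of WT3. Recovery in the real data may therefore differ. No replicate pair of a genotype agreed within counting noise. Members and lists were chosen with earlier results of these data known. Genes named are members past an unadjusted p of 0.05, the extremes of each complex in fold change or level per length, fixed key subunits, and list extremes, unless the text says otherwise. Levels per kilobase used Ensembl canonical transcripts of GENCODE M39 and promoters came from RefSeq (GRCm38.p6). Alternatives were DESeq2 1.42.0, limma 3.58.1 (voom with quality weights), other scalings, no filter, the replicate block, and libraries left out. The values of 1 member are not reported here, and the plots by gene leave it out, while all counts, sums and medians include it.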

Additional observations from a re-analysis of the deposited data

Results flagged for a closer look

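In groups of 4 libraries, 9 of the 160 groups of values examined held a library far from the other 3 (by Dixon's test of the gap against the range, at 95%), and chance gives about 5% of groups. Among the subunits, the summed CPM of all 81 was 10090 in the library labelled WT3 against 9246 to 9325 in the other WT libraries. Ndufa4 had 104 CPM in WT3 against 80.9 to 84.8, and Uqcrq 83.1 against 73.1 to 74.7. In KO, Cox6a1 had 181 CPM in KO4 against 195 to 196, and Sdhc 105 in KO1 against 108 in the other 3. Among mitochondrial genes, mt-Atp8 had 16.1 CPM in WT3 against 6.3 to 7.19, mt-Nd1 2239 in KO3 against 2503 to 2516, and mt-Nd2 1225 in KO3 against 1422 to 1451. The regulator Perm1 had 1.6 CPM in WT2 against 0.911 to 1.03.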

How the results depend on the processing

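No subunit had an adjusted p below 0.05 in any of the 16 alternatives (lowest 0.123). The number of all genes with an adjusted p below 0.05 was 30, and became 81 with DESeq2, 95 with voom, 3 without KO replicates 1 and 4 and 14 without these and WT replicate 4, the last chosen after seeing the data. Leaving out 1 library gave 6 to 162 (162 without KO replicate 2, 6 without KO replicate 1). At an unadjusted p the count of 1052 became 450 and 574 in those last 2 settings and 697 to 1230 with 1 library left out. The number of subunits higher in KO, 1, became 2 with voom (Atp5if1 and Uqcrq), 0 and 0 without those KO libraries, and 1 to 8 with 1 library left out (8 without WT replicate 3, 2 without KO replicate 2). The number lower was 0 to 1 with 1 library left out, Ndufb5 without WT replicate 4 or KO replicate 4. The cause was not tested. Uqcrq stayed above 0 throughout (log2 fold change 0.12 to 0.22) with an unadjusted p below 0.05 in 14 of 16 alternatives. The complex II median stayed below 0 (−0.07 to −0.041), the complex V sum above 0 (0.0012 to 0.035), and the medians of complexes I, III, IV and V (−0.016 to 0.066 in V) and of all 81 (−0.051 to 0.034) changed sign. The replicate block gave 87 calls at an adjusted p below 0.05 over all genes, and the same subunit at an unadjusted p below 0.05. The deviations of same-numbered libraries correlated by −0.0521 to 0.0639. These low values show no pairing by number, but they cannot exclude that some libraries were prepared together. Depth limits what can be said of Cox7a1, Cox6b2 and Atp5mc2, and near copies add to this for Atp5mc2.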
